A study of Mus musculus with 18 samples.

Results

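The 9 genes described here encode inhibitory checkpoint molecules of the T cell surface, and they were taken by symbol from a table of 23337 genes. They are Pdcd1 (PD-1), Lag3, Cd200, Tigit, Cd96, Cd160, Btla, Ctla4 and Havcr2 (TIM-3). Of these, 8 passed the filter on low counts and were tested, and Havcr2 did not pass. Cd200 is the ligand of an inhibitory receptor, Cd200r1, and not itself an inhibitory receptor. Invariant natural killer T (iNKT) cells, which recognise lipids presented by CD1d, had been sorted from the thymus of BALB/c mice and profiled by RNA-seq as 3 subsets, NKT1, NKT2 and NKT17. WT mice were compared with SKG mice, whose spontaneous Zap70 point mutation weakens signalling by the T cell receptor (TCR). Each of the 6 groups had 3 libraries, so that 18 libraries were used.

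WT and SKG mice were bred as separate F3 lines from F2 offspring of an SKG by BALB/cJ cross, so litter and line cannot be told apart from genotype. The sources used here give neither the age nor the sex of the mice behind these libraries, nor whether the 3 libraries of a group came from separate animals, and the p-values then measure the spread between these samples only. NKT1 cells were sorted as ICOS low and CD49a positive, NKT17 cells as ICOS high and Sdc-1 positive, and NKT2 cells as ICOS high, Sdc-1 negative and high for CD4 and TCR beta. None of the 9 genes encodes a protein used in a gate. Levels are given as CPM, the usual depth-scaled count, here scaled by library size and composition. The libraries held 4391029 to 8895917 counts, and 3 counts, taken here as the floor, correspond to 0.362 to 0.66 CPM in a library. CPM was summed over 6 markers of each subset, among which Icos and Sdc1 were also gates. The sums of NKT1 and NKT17 markers followed the labels. NKT1 markers reached 3950 to 5610 in NKT1 libraries and at most 424 elsewhere. NKT17 markers reached 2380 to 2480 in NKT17 libraries and at most 14.3 elsewhere. NKT2 markers were highest in WT NKT2 libraries, at 2840 to 3350. Their sum did not fully separate SKG NKT2 libraries from NKT17 libraries of either genotype. The SKG NKT2 range, 1400 to 2060, overlapped those of SKG NKT17 (1300 to 1410) and WT NKT17 (1470 to 1580). Zap70 carries a point mutation in SKG mice, so its RNA level does not check the labels. Its log2 difference of SKG from WT was -0.24, -0.39 and -0.58 in NKT1, NKT2 and NKT17 (edgeR adjusted p = 0.36, 0.0378 and 0.00174). The erythroid genes summed to at most 1.45 CPM. The B cell markers summed to 24.8 to 40.7 CPM in SKG NKT17 and 7.82 to 11.1 CPM in WT NKT17 libraries, and to 2.95 to 5.95 and 1.24 to 2.41 CPM in SKG and WT NKT1 libraries. Most of this was Cd79b, a chain of the B cell receptor complex, at 24.6 to 40.0 against 7.55 to 10.2 CPM in NKT17, while Pax5, a B cell factor, had no count in any library. The markers of double-positive thymocytes summed to 14.3 to 47.5 CPM in SKG NKT17 and 5.27 to 12.5 CPM in WT NKT17 libraries, with Cd8b1 at 12.4 to 36.8 against 1.76 to 11.8 CPM and Rag1, Rag2 and Dntt without a count there. The part of these cells in the differences between SKG and WT was not tested.

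Checkpoint receptors sit beside the TCR and dampen its signal, mostly through phosphatases or by taking ligands away from costimulatory receptors. Several of them are themselves induced by TCR signalling, and PD-1 on thymocytes is widely read as a mark of recent or strong receptor engagement. They fall into families by ligand. PD-1 binds PD-L1 and PD-L2, and LAG-3 binds MHC class II. TIGIT and CD96 share nectin-like ligands with the activating receptor CD226, CD160 and BTLA share the ligand HVEM, CTLA-4 takes CD80 and CD86 from CD28, and TIM-3 binds galectin-9 among others.

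The start regions of 4 of the genes are printed because these genes moved in different ways: Pdcd1 and Cd200 were lower in SKG cells, Cd96 was higher in SKG NKT2 and NKT17 cells, and Tigit was nearly confined by its counts to NKT1 libraries. RefSeq gives a start region for 8 of the 9 genes, 9 windows in all, on build GRCm38.p6, each with 250 bases before and 50 bases after an annotated start. Matches to an NFAT core (GGAAA) and a Runx core (TGTGGT) on either strand are in capitals. All 4 genes lie on the minus strand, and each sequence is written 5′ to 3′ on that strand.
Pdcd1, chr1:94052504-94052803: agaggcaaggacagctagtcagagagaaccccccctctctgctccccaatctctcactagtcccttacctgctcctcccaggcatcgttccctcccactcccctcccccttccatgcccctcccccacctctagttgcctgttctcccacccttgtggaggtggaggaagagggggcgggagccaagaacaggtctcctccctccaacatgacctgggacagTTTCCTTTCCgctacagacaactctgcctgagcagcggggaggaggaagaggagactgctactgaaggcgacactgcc
Cd200, chr16:45409004-45409303: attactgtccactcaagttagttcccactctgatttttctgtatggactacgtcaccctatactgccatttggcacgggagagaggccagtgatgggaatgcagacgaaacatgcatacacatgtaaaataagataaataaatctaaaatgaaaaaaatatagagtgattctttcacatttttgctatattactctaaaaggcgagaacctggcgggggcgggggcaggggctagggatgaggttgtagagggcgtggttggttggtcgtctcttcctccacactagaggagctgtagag
Cd96, chr16:46120199-46120498: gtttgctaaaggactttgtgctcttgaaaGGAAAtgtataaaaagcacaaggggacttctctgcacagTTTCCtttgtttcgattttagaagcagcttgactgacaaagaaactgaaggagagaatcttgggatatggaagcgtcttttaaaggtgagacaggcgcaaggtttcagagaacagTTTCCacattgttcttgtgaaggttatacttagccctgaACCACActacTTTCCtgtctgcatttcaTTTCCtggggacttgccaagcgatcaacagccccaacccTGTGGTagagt
Tigit, chr16:43664135-43664434: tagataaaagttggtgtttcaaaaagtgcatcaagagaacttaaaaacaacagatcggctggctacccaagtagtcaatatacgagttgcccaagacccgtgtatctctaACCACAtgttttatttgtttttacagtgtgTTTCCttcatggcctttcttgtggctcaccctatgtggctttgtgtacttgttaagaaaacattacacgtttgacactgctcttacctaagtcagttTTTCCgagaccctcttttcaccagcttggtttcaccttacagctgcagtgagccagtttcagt
The NFAT core was found 5 times in the Cd96 window, 2 times in that of Pdcd1 and 2 times in that of Tigit, and these letters were not in the Cd200 window. The Runx core was found 2 times in the Cd96 window and 1 time in that of Tigit. In the printed windows no match of one core overlapped a match of the other. Over the 9 windows of these genes, 5 held the NFAT core and 6 the Runx core, while 61.3% and 16.8% of all 32851 RefSeq windows of 300 bases held them. An AP-1 motif (TGANTCA, both strands, which reads the same on each) was found in 1 of the 9 windows, that of Havcr2, against 7.8% of all windows. A T-box core (TCACAC, both strands) was found in 3, the pair of Cd160 windows and that of Btla, against 14.5%. These are matches of letters and were not tested as binding sites.

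The first question was how the 9 genes differed between SKG and WT cells of the same subset. Pdcd1 and Lag3 were lower in SKG cells of every subset, Cd200 was lower in NKT2 and NKT17 cells, Tigit was lower in NKT1 cells, and Cd96 was higher in NKT2 and NKT17 cells. Calls come from edgeR's quasi-likelihood test and needed a fold change of at least 1.5 together with a p under 0.1 after Benjamini-Hochberg adjustment over all 11118 tested genes. In NKT1 cells 3 of the 8 tested genes were called lower in SKG, where 1.82% of all tested genes were, and 0 were called higher, where 1.46% of all tested genes were. DESeq2 also called 0 higher, and 0 were higher at an unadjusted p under 0.05. Pdcd1, Tigit and Cd160 had been singled out by the study as lower in SKG NKT1 cells on these same libraries, so the count in NKT1 cells is not independent evidence of that direction. In NKT2 cells 3 of the 8 were called lower (4.05% of all tested genes) and 1 was called higher (3.90%). In NKT17 cells 4 were called lower (4.54%) and 2 higher (3.83%), and of these calls Tigit and Cd160 were each lost when any one of several libraries was left out.

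**Figure D1:**
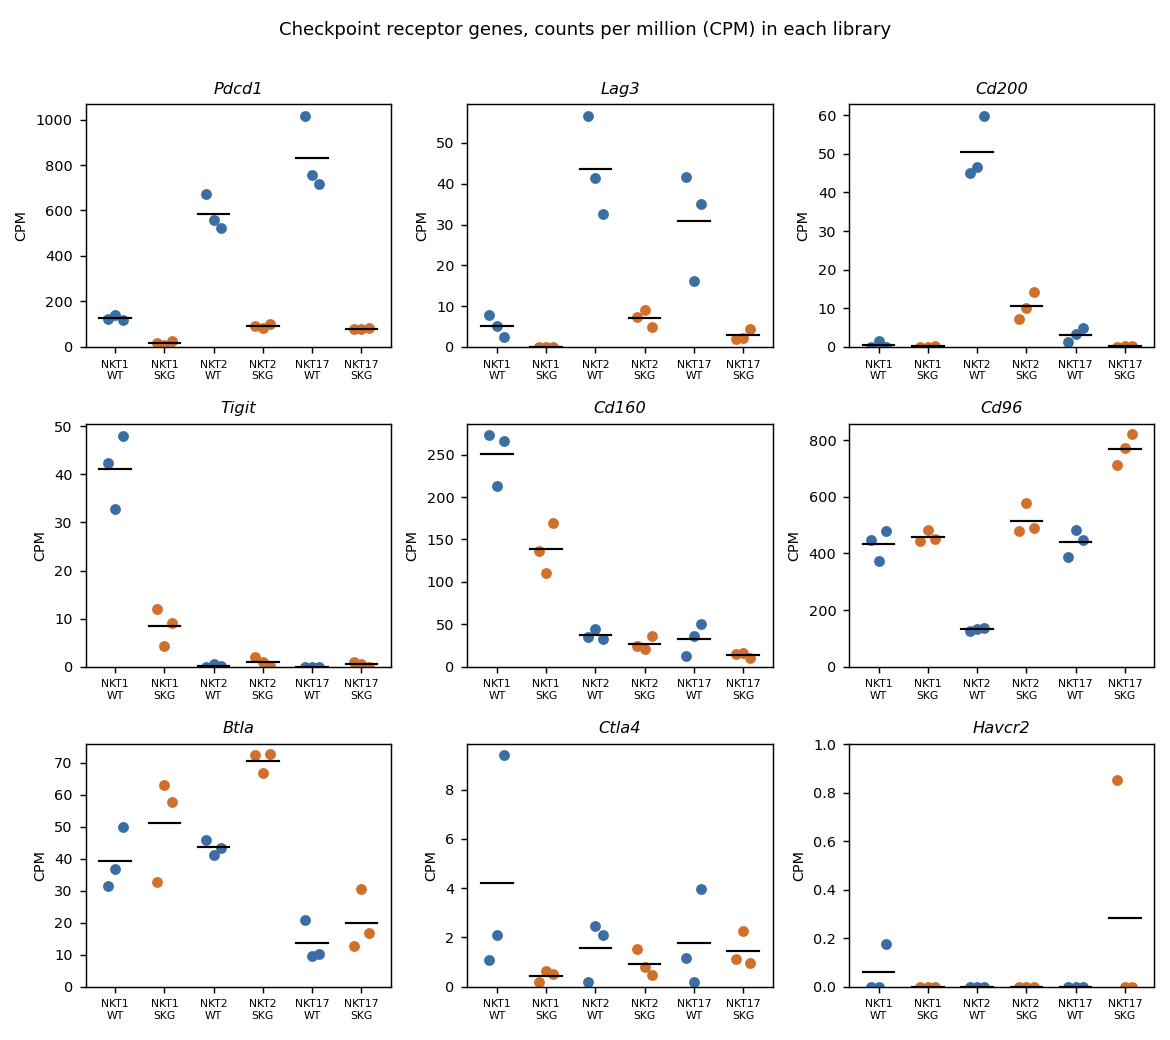
CPM (vertical axis, linear, from 0, with its own range in each panel) of the 9 genes in each of the 18 libraries, by subset and genotype on the horizontal axis. Each point is 1 library (blue WT, orange SKG) and each line the mean of 3 libraries. The SKG points of Pdcd1 lie below all WT points of the same subset, and the SKG points of Cd96 lie above those of WT in NKT2 and NKT17 but not in NKT1.

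Pdcd1, at chr1:95934884-95949130 on the minus strand of build NCBIM37, with 5 exon blocks, was per exon length the most abundant of the 9 genes in WT NKT2 and WT NKT17 cells. In WT NKT1 libraries its level was 125, 139 and 118 CPM, and in SKG NKT1 libraries 17.8, 8.12 and 25.3 CPM. In WT NKT2 libraries it was 671, 558 and 521 CPM, against 93.6, 84.0 and 98.8 CPM in SKG NKT2. In WT NKT17 libraries it was 1016, 754 and 717 CPM, against 76.8, 76.9 and 84.6 CPM in SKG NKT17. Every SKG library thus lay below every WT library of its subset, and all 9 SKG libraries lay below the lowest WT library of any subset. Transcript was 7.35-fold lower in SKG NKT1 cells, a log2 difference of -2.88 (SE 0.25, edgeR adjusted p = 7.79e-06). It was 6.33-fold lower in SKG NKT2 cells (log2 -2.66, SE 0.24, edgeR adjusted p = 1.16e-06) and 10.4-fold lower in SKG NKT17 cells (log2 -3.38, SE 0.24, edgeR adjusted p = 1.30e-07). These are bulk samples, and fewer cells that express a gene cannot be told apart from less RNA of that gene per cell.

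The 3 falls of Pdcd1 were compared with each other. The SKG effect in NKT2 differed from that in NKT1 by 0.22 on the log2 scale (95% confidence interval -0.49 to 0.92), that in NKT17 from that in NKT1 by -0.51 (-1.21 to 0.20), and that in NKT17 from that in NKT2 by -0.72 (-1.39 to -0.05). None of these 3 differences was called (edgeR adjusted p = 0.853, 0.543 and 0.409), although the last was called when only the 12 libraries of NKT2 and NKT17 were fitted (adjusted p = 0.0568) and that of NKT17 against NKT1 was called without SKG NKT1 replicate 2 (adjusted p = 0.0471). The sample titles carry a token of unstated meaning, and 2 tokens occur once in each of the 6 groups. Within these 2 tokens the log2 ratio of SKG over WT for Pdcd1 was -2.97 and -3.86 in NKT1, -2.58 and -2.63 in NKT2, and -3.30 and -3.22 in NKT17.

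The order of Pdcd1 levels ran from WT NKT17 (829 ± 163 CPM, SD, n = 3) through WT NKT2 (584 ± 78.2), WT NKT1 (127 ± 11.1), SKG NKT2 (92.1 ± 7.50) and SKG NKT17 (79.5 ± 4.50) to SKG NKT1 (17.1 ± 8.61). WT NKT17 and WT NKT2 libraries did not overlap, yet their 1.42-fold difference was not called (edgeR adjusted p = 0.114), except without WT NKT2 replicate 1 (adjusted p = 0.0895). SKG NKT2 and SKG NKT17 overlapped and were not called different. In both genotypes NKT1 cells held less Pdcd1 than the other subsets, 4.59-fold and 6.52-fold less than NKT2 and NKT17 in WT, and 5.33-fold and 4.59-fold less in SKG.

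Lag3, at chr6:124854379-124861723 (minus strand, 9 exon blocks), encodes a receptor for MHC class II and was less abundant per exon length than Pdcd1 in every group. WT NKT2 libraries held 56.6, 41.4 and 32.7 CPM and SKG NKT2 libraries 7.27, 9.01 and 4.98 CPM, with no overlap. WT NKT17 libraries held 41.6, 16.2 and 35.0 CPM against 1.84, 2.27 and 4.50 CPM in SKG NKT17, again with no overlap. Lag3 was thus 6.16-fold lower in SKG NKT2 cells (log2 -2.62, SE 0.42, edgeR adjusted p = 0.000317) and 10.9-fold lower in SKG NKT17 cells (log2 -3.44, SE 0.46, edgeR adjusted p = 3.46e-05). In NKT1 cells the WT libraries held 64, 27 and 14 counts, and the SKG libraries held 0 counts each. Against the floor of 3 counts per library, Lag3 was at least 9.03-fold lower in SKG NKT1 cells, and the call was made at an edgeR adjusted p of 0.000209. The order of Lag3 levels ran from WT NKT2 and WT NKT17, which overlapped and were not called different, through SKG NKT2, WT NKT1 and SKG NKT17, of which neighbours overlapped, to SKG NKT1.

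Cd200, at chr16:45382248-45409166 (minus strand, 7 exon blocks), encodes the ligand by which cells restrain partners that carry CD200R. It was a transcript of NKT2 cells: WT NKT2 libraries held 45.2, 46.5 and 59.8 CPM and SKG NKT2 libraries 7.27, 9.98 and 14.3 CPM. The groups did not overlap, and Cd200 was 4.77-fold lower in SKG NKT2 cells (log2 -2.25, SE 0.54, edgeR adjusted p = 0.0106). In NKT17 cells the counts fell from 7, 19 and 36 in WT to 0, 2 and 1 in SKG (edgeR adjusted p = 0.00813), a ratio of summed counts per depth of 20.6 with an exact 95% counting interval of 6.74 to 103 that covers counting error only. In NKT1 cells Cd200 had at most 8 counts in a library of either genotype and was not called.

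Beside the falls of Pdcd1, Lag3 and Cd200 in NKT2 cells, 4 of the 6 NKT2 markers (Gata3, Icos, Folr4 and Lef1) lay wholly lower in SKG NKT2 than in WT NKT2 libraries, and 0 lay wholly higher. Icos was also a gate. In NKT17 cells the summed NKT17 markers did not separate the genotypes, at 2390 to 2450 CPM in SKG, inside the WT range given above, while Il23r and Il1r1 lay wholly lower and Ccr6 wholly higher in SKG. In NKT1 cells 3 of the 6 NKT1 markers (Il2rb, Xcl1 and Klrd1) lay wholly lower in SKG. The share of all genes that lay wholly apart in this way is not given, so these counts have no background. The part of these markers in the differences of the checkpoint genes was not tested.

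**Figure D2:**
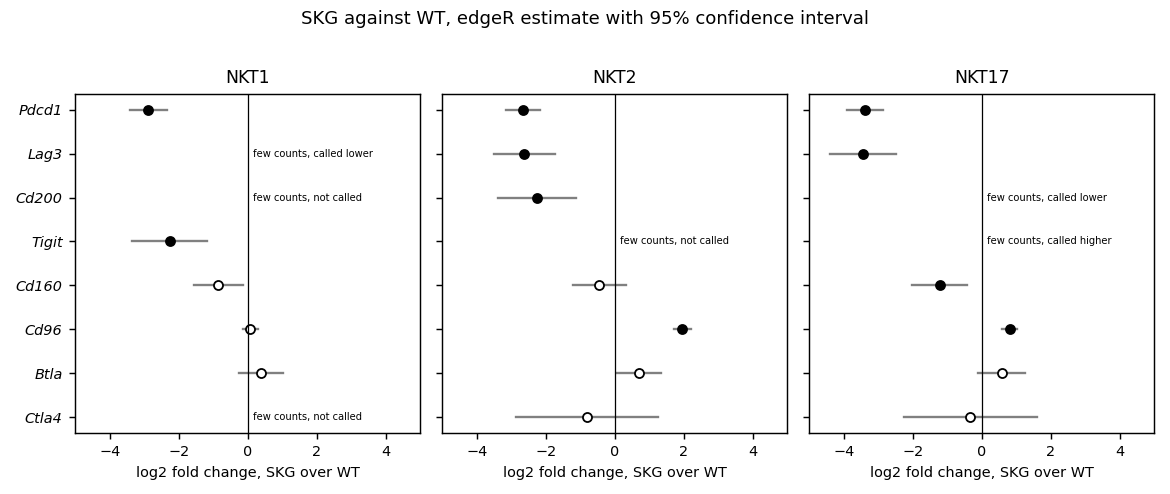
Log2 fold change of SKG over WT (horizontal axis) of the 8 tested genes in each subset, from edgeR, with 95% confidence intervals as lines; filled points were called and open points were not. Words replace a point where 1 group had at most 3 counts in every library. A fitted fold then rests on few counts, or on the prior count where a group had none. Pdcd1 lies between -3.38 and -2.66 in all 3 subsets, and Cd96 lies at 1.96 in NKT2, 0.81 in NKT17 and 0.08 in NKT1.

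Cd96, at chr16:46035770-46120364 (minus strand, 15 exon blocks), encodes a receptor for nectin-like ligands and moved opposite to Pdcd1. WT NKT2 libraries held 126, 133 and 138 CPM and SKG NKT2 libraries 479, 577 and 489 CPM. WT NKT17 libraries held 386, 483 and 448 CPM and SKG NKT17 libraries 713, 771 and 821 CPM. WT NKT1 libraries held 446, 375 and 480 CPM and SKG NKT1 libraries 442, 482 and 450 CPM. The genotypes were thus fully apart in NKT2 and NKT17 and overlapped in NKT1. Cd96 was 3.89-fold higher in SKG NKT2 cells (log2 1.96, SE 0.11, edgeR adjusted p = 1.39e-10) and 1.75-fold higher in SKG NKT17 cells (log2 0.81, SE 0.11, edgeR adjusted p = 2.52e-05). In NKT1 cells the log2 difference was 0.08 (95% confidence interval -0.15 to 0.30, edgeR adjusted p = 0.839).

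The SKG effect on Cd96 differed between each pair of subsets. It was larger in NKT2 than in NKT1 by 1.88 on the log2 scale (SE 0.16, edgeR adjusted p = 1.21e-07), larger in NKT17 than in NKT1 by 0.73 (SE 0.15, adjusted p = 0.00944), and smaller in NKT17 than in NKT2, by -1.16 (SE 0.15, adjusted p = 0.000179). Within the shared title tokens the log2 ratio of SKG over WT was 1.85 and 2.07 in NKT2, 0.56 and 0.78 in NKT17, and 0.24 and 0.01 in NKT1. The order of levels was SKG NKT17 (768 ± 54.4 CPM, SD, n = 3), SKG NKT2 (515 ± 53.6), SKG NKT1 (458 ± 20.9), WT NKT17 (439 ± 49.2), WT NKT1 (434 ± 53.7) and WT NKT2 (132 ± 5.72). From SKG NKT2 down to WT NKT1, neighbours in this order overlapped and were not called different where one contrast compared them, and WT NKT2 lay wholly below them. SKG NKT17 libraries lay wholly above those of SKG NKT2, but that difference was not called.

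Tigit, at chr16:43648974-43664297 (minus strand, 4 exon blocks), shares ligands with Cd96 but was found almost only in NKT1 libraries. WT NKT1 libraries held 42.3, 32.8 and 48.0 CPM and SKG NKT1 libraries 12.1, 4.37 and 9.18 CPM, with no overlap. Tigit was 4.78-fold lower in SKG NKT1 cells (log2 -2.26, SE 0.52, edgeR adjusted p = 0.0198), a call that was lost without SKG NKT1 replicate 2 (adjusted p = 0.11). Libraries of the other subsets held at most 9 counts. In NKT2 cells there were 0, 3 and 1 counts in WT and 9, 5 and 1 in SKG, and the difference was not called (edgeR adjusted p = 0.278). In NKT17 cells there were 0 counts in each WT library and 7, 3 and 0 counts in SKG libraries. This was called higher (edgeR adjusted p = 0.0958), but the mean of the SKG libraries, 0.505 CPM, was no higher than 3 counts in each WT NKT17 library would give, and no fold is given. Without any single one of 5 of the 6 libraries, SKG NKT17 replicate 3 excepted, the adjusted p was 0.14 to 0.349, and the call was lost in 8 of 14 alternatives in all.

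Cd160, at chr3:96602686-96633274 (minus strand, 6 exon blocks), encodes a receptor for HVEM and was likewise most abundant in NKT1 cells. WT NKT1 libraries held 273, 213 and 266 CPM and SKG NKT1 libraries 137, 111 and 169 CPM. Although the groups did not overlap, the 1.80-fold difference was not called (log2 -0.85, SE 0.33, edgeR adjusted p = 0.256), but it was when only the 6 NKT1 libraries were fitted (adjusted p = 0.0207). The study, with DESeq2, had named Cd160 as lower in SKG NKT1 cells. Here DESeq2 over all 18 libraries did not call it, and it stayed uncalled in 14 of 15 alternatives. The study also reported reduced CD160 on iNKT cells of the SKG spleen. In NKT17 cells WT libraries held 12.5, 35.7 and 49.8 CPM and SKG libraries 15.3, 16.1 and 10.9 CPM, which overlap. This difference was called lower (2.33-fold, log2 -1.22, SE 0.37, edgeR adjusted p = 0.0567), and it was not called without WT NKT17 replicate 3 (log2 -0.77, adjusted p = 0.24) or without WT NKT17 replicate 2 or any SKG NKT17 library (adjusted p 0.105 to 0.206). In all the call was lost in 8 of 15 alternatives. In NKT2 cells the groups overlapped at 37.6 ± 5.96 CPM in WT and 27.3 ± 7.71 CPM in SKG (SD, n = 3). Cd160 shares 68 exon bases with Pdzk1 on the opposite strand. Whether reads were counted by strand is not given in the sources used here, and Pdzk1 itself had 8 to 34 counts in a library.

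Btla, at chr16:45224428-45253008 (plus strand, 6 exon blocks), encodes the other HVEM receptor of the group, and its fold changes pointed up in SKG cells without a call. WT NKT2 libraries held 46.0, 41.1 and 43.5 CPM and SKG NKT2 libraries 72.5, 66.8 and 72.7 CPM. These groups did not overlap, and the 1.62-fold difference had a log2 value of 0.70 (95% confidence interval 0.07 to 1.33, edgeR adjusted p = 0.185). It was called by edgeR when only the NKT2 libraries were fitted (edgeR adjusted p = 0.00246). In NKT1 cells Btla overlapped between genotypes, at 39.4 ± 9.54 CPM in WT and 51.2 ± 16.2 CPM in SKG (SD, n = 3). In NKT17 cells it overlapped as well, at 20.7, 9.56 and 10.2 CPM in WT and 12.6, 30.5 and 16.7 CPM in SKG, and the difference was called only without WT NKT17 replicate 1 (edgeR adjusted p = 0.0855).

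Ctla4, at chr1:60943844-60972676 (plus strand, 7 exon blocks), was detected in all 18 libraries but never above 53 counts. WT NKT1 libraries held 9, 11 and 53 counts and SKG NKT1 libraries 1, 3 and 3 counts. The ratio of summed counts per depth was 8.68 (exact 95% counting interval 4.01 to 22.4, counting error only), most of it from WT NKT1 replicate 3, and edgeR did not call the difference (adjusted p = 0.126), while DESeq2 did (adjusted p = 0.0691), as did edgeR without WT NKT1 replicate 1 (adjusted p = 0.0697). Every SKG NKT1 library lay below every WT NKT1 library. Ctla4 is also a gene of regulatory T cells. The 6 regulatory T cell markers summed to 319 to 396 CPM in WT NKT1 and 266 to 314 CPM in SKG NKT1 libraries. Most of this sum was Tnfrsf18, which overlapped, at 249 to 341 CPM in WT and 245 to 293 CPM in SKG. Of the 6 markers, Il2ra and Ikzf2 lay wholly lower in SKG. Foxp3 lay wholly higher, with no count in any WT NKT1 library and at most 0.625 CPM in SKG NKT1. Ikzf4 had no count in WT NKT1 and at most 1.25 CPM in SKG NKT1. Gpr83 had at most 1.24 CPM in WT NKT1 and no count in SKG NKT1. The share of all genes lying wholly apart between these groups is not given. The part of these markers in the Ctla4 values was not tested. In NKT2 and NKT17 libraries Ctla4 had 1 to 29 counts and the genotypes overlapped.

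Havcr2, at chr11:46268437-46294757 (plus strand, 7 exon blocks), was at 0 counts in 16 of the 18 libraries. The exceptions were 1 count in WT NKT1 replicate 3 and 6 counts in SKG NKT17 replicate 1. A count of 0 allows up to 3 counts, or 0.362 to 0.66 CPM in these libraries, and a difference between groups was not detectable at this depth.

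The second question was whether the genes differed between subsets of one genotype. In WT and in SKG mice alike, Tigit and Cd160 were called higher in NKT1 than in the other subsets and Pdcd1 and Lag3 lower. Cd200 was also lower in NKT1 than in NKT2, whereas Btla exceeded its NKT17 level there. Between WT NKT1 and WT NKT2, 3 of the 8 tested genes passed as higher in NKT1 (13.7% of all tested genes) and 3 as lower (13.7%). Between WT NKT1 and WT NKT17, 3 were called higher (11.2%) and 3 lower (13.5%). Between WT NKT17 and WT NKT2, 1 was called higher in NKT17 (11.0%) and 2 lower (8.97%). Between SKG NKT1 and SKG NKT2, 2 were called higher in NKT1 (10.0%) and 3 lower (8.63%). Between SKG NKT1 and SKG NKT17, 3 were called higher (10.2%) and 3 lower (12.5%). Between SKG NKT17 and SKG NKT2, 0 were called higher by edgeR and by DESeq2, with 1 higher at an unadjusted p under 0.05 (10.5% of all tested genes called higher), and 4 were called lower (8.27%).

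The place of Cd96 among the subsets differed between the genotypes, by the interaction tests given above. In WT cells it was 3.28-fold higher in NKT1 than in NKT2 (log2 1.71, SE 0.11, edgeR adjusted p = 5.80e-11) and 3.32-fold higher in NKT17 than in NKT2 (log2 1.73, SE 0.11, adjusted p = 6.22e-11), while NKT1 and NKT17 differed by -0.02 (95% confidence interval -0.24 to 0.21). In SKG cells NKT1 and NKT2 differed by only -0.17 (-0.39 to 0.06, edgeR adjusted p = 0.315), and NKT17 stood 1.68-fold above NKT1 (adjusted p = 1.17e-05). SKG NKT17 stood 1.49-fold above SKG NKT2 (log2 0.58, edgeR adjusted p = 0.000334), which is just under the fold change of 1.5 that a call needed.

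Tigit and Cd160 were NKT1 transcripts in both genotypes. In WT, Tigit summed to 793 counts over the 3 NKT1 libraries against 4 over the NKT2 libraries, a ratio per depth of 174 (exact 95% counting interval 67.6 to 639), and was at least 81.0-fold higher than in NKT17, where no library had a count. In SKG cells Tigit summed to 139 counts in NKT1, 15 in NKT2 and 10 in NKT17, and was called higher in NKT1 than in NKT2 (edgeR adjusted p = 0.00141) and than in NKT17 (edgeR adjusted p = 0.000173). The fitted log2 differences rest on few counts: with 1 library left out they ran from 2.54 (without SKG NKT2 replicate 3) to 3.94 (without SKG NKT2 replicate 1) against NKT2, and from 3.44 (without SKG NKT17 replicate 3) to 4.88 (without SKG NKT17 replicate 1) against NKT17. Cd160 was 6.66-fold and 7.60-fold higher in NKT1 than in NKT2 and NKT17 of WT mice (edgeR adjusted p = 2.78e-05 and 1.35e-05), and 5.06-fold and 9.83-fold higher in SKG mice (edgeR adjusted p = 0.0002 and 7.68e-06). Between SKG NKT17 and SKG NKT2 the Cd160 call (1.94-fold lower in NKT17, edgeR adjusted p = 0.0896) was lost without 5 of the 6 libraries in turn, SKG NKT2 replicate 2 excepted (adjusted p 0.138 to 0.324).

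Fcer1g, a gene of myeloid and NK cells, moved with the same groups as Tigit and Cd160. It stood at 272 to 523 CPM in WT NKT1, at 171 to 212 CPM in SKG NKT1 and at most at 2.91 CPM elsewhere. The other myeloid markers were near or at 0: Csf1r, Itgam and Cd14 had no count in any NKT1 library, and the sum of all 6 was 272 to 526 CPM in the WT and 172 to 212 CPM in the SKG libraries of that subset. Its part in the Tigit and Cd160 values was not tested.

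Lag3 and Cd200 were low in NKT1 cells. In WT, Lag3 was 8.31-fold lower in NKT1 than in NKT2 and 5.91-fold lower than in NKT17 (edgeR adjusted p = 1.26e-05 and 8.18e-05). In SKG NKT1 it had no count and was at least 12.5-fold lower than in SKG NKT2 and at least 5.06-fold lower than in SKG NKT17. Cd200 was 15.3-fold lower in NKT17 than in NKT2 of WT mice (edgeR adjusted p = 4.03e-05). It was called lower in NKT1 than in NKT17 of WT mice (edgeR adjusted p = 0.0109), where the libraries overlap, at 0, 8 and 0 counts against 7, 19 and 36. The size of that difference depended on single WT NKT1 libraries: the fitted log2 value was -7.27 without replicate 2 and -2.12 without replicate 1. In SKG mice its counts summed to 173 in NKT2, 3 in NKT17 and 2 in NKT1. The Lag3 difference between SKG NKT17 and SKG NKT2 (2.49-fold lower in NKT17, edgeR adjusted p = 0.051) was lost without any single one of 4 libraries, SKG NKT2 replicates 1 and 2 and SKG NKT17 replicates 1 and 2 (adjusted p 0.112 to 0.204).

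Btla was low in NKT17 cells and did not separate NKT1 from NKT2. It was 2.94-fold higher in NKT1 than in NKT17 of WT mice (log2 1.56, SE 0.32, edgeR adjusted p = 0.000885) and 2.57-fold higher in SKG mice (log2 1.36, SE 0.31, adjusted p = 0.00256). It was 3.26-fold and 3.55-fold lower in NKT17 than in NKT2 of WT and SKG mice (edgeR adjusted p = 0.000515 and 0.000197). NKT1 and NKT2 differed by -0.15 in WT (95% confidence interval -0.78 to 0.49) and by -0.47 in SKG (-1.10 to 0.16) on the log2 scale. The SKG NKT1 libraries nonetheless lay wholly below those of SKG NKT2.

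The third question was whether the SKG effect itself differed between subsets. For NKT2 minus NKT1, 3 of the 8 genes, Cd96, Tigit and Lag3, were called with a more positive effect in NKT2 (2.09% of all tested genes) and 0 with a more negative one (1.78%), with 0 more negative by DESeq2 and 0 at an unadjusted p under 0.05. For NKT17 minus NKT1, 2, Cd96 and Tigit, were more positive (2.05%) and 0 more negative (2.12%), again 0 by DESeq2 and 0 at an unadjusted p under 0.05. For NKT17 minus NKT2, 1, Cd96, was more negative (1.05%) and 0 more positive (1.14%), also 0 by DESeq2 and at an unadjusted p under 0.05. The Tigit and Lag3 differences rest on groups with no or few counts. Where a group had no count, the fitted size depends on the prior count. For Tigit they set a fall in NKT1 beside levels at or under 9 counts in the other subsets.

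To compare levels between genes, counts were divided by exon length, as CPM per kilobase of exon. Summed over the 9 genes, this level was 418 ± 40.4 in WT NKT1 and 296 ± 13.1 in SKG NKT1, 428 ± 41.6 and 324 ± 19.0 in NKT2, and 664 ± 62.7 and 407 ± 26.9 in NKT17 (SD, n = 3). Pdcd1 made up 70.6% ± 2.51 of the sum in WT NKT2 and 64.4% ± 6.35 in WT NKT17, and 14.8% ± 1.91 and 10.1% ± 0.408 in the SKG groups (SD, n = 3). Cd96 made up 14.3% ± 1.93 and 30.6% ± 5.77 in WT NKT2 and NKT17, and 72.8% ± 3.36 and 86.4% ± 0.626 in SKG. In NKT1 cells Cd96 led in both genotypes, with 47.4% ± 1.36 in WT and 71.0% ± 4.77 in SKG, followed by Cd160 with 22.6% ± 1.27 and 17.7% ± 3.12. The leading gene of the set was thus Pdcd1 in WT NKT2 and WT NKT17 and Cd96 in the remaining groups.

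Within a library, Cd96 per Pdcd1 on this scale was 0.166 to 0.233 in WT NKT2 and 4.37 to 6.06 in SKG NKT2. The NKT17 libraries gave 0.335 to 0.566 for WT against 8.19 to 8.84 for SKG, and it was 2.37 to 3.60 in WT NKT1 and 15.7 to 52.4 in SKG NKT1. The SKG and WT ranges did not overlap in any subset, and every SKG library lay above every WT library. No test was run on this ratio, whose parts were each tested above.

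**Figure D3:**
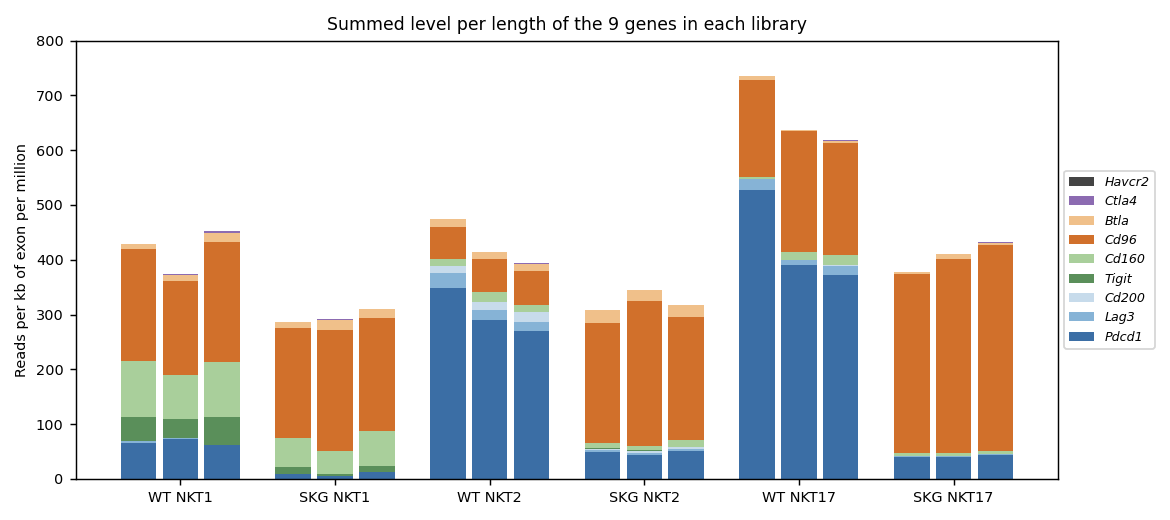
Level per length (vertical axis, CPM per kilobase of exon, from 0) of the 9 genes stacked in each of the 18 libraries, 3 bars per group. Blue Pdcd1 is the largest segment in the WT NKT2 and WT NKT17 bars, at 64.4% to 70.6% of the sum on average, and orange Cd96 is the largest in the SKG bars, at 71.0% to 86.4%.

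The partner genes of the checkpoint receptors were described from 4 lists: 20 ligands and competing receptors, 18 cytoplasmic partners and trafficking genes, 20 transcription factors known to act at checkpoint genes, and 18 genes listed as other inhibitory receptors. Of these, 15, 18, 18 and 13 were tested. Whether each gene of the last list, Cd83 among them, acts as an inhibitory receptor in these cells was not tested. The background for the counts of each list was 1.46% of all tested genes higher and 1.82% lower in SKG NKT1, 3.90% and 4.05% in SKG NKT2, and 3.83% and 4.54% in SKG NKT17 cells. Of the ligands and competing receptors, edgeR called 0 of 15 in NKT1, while 2 were higher and 1 lower in NKT2, and 2 higher and 1 lower in NKT17, with median log2 differences of -0.28, 0.04 and -0.02 beside -0.007, -0.004 and 0.005 over all tested genes. In NKT1 cells 5 of the 15 had an unadjusted p under 0.05 in edgeR and DESeq2 called 1. Pvr, the ligand that Tigit and Cd96 share, was 3.14-fold lower in SKG NKT17 cells (33.9 ± 5.78 CPM in WT, 10.7 ± 2.00 CPM in SKG, SD, n = 3, edgeR adjusted p = 8.97e-06). The SKG effect on Pvr in NKT17 was more negative than in NKT1 by -1.37 (edgeR adjusted p = 0.00612) and than in NKT2 by -1.71 (adjusted p = 0.00111) on the log2 scale. Lgals3, a galectin gene, was 4.33-fold higher in SKG NKT2 cells (edgeR adjusted p = 0.00162). Cd86, a ligand of CTLA-4, had 3 counts in all over WT NKT2 libraries and 96 over SKG NKT2 libraries (edgeR adjusted p = 0.0202), a call that DESeq2 did not make (adjusted p = 0.231). Fgl2 rose from 0.868 ± 0.502 to 21.6 ± 17.7 CPM in SKG NKT17 cells (SD, n = 3, edgeR adjusted p = 0.00765), and Icosl from 1 to 16 counts over 3 libraries (adjusted p = 0.0127). In NKT1 cells Fgl2 stood at 933 CPM in WT and 1128 CPM in SKG. The SKG effect on Cd226, the activating receptor for Pvr, was more negative in NKT17 than in NKT1 by -0.68 (edgeR adjusted p = 0.0249), and that on Lgals3 was more positive in NKT2 than in NKT1 by 2.80 (edgeR adjusted p = 0.00591). Icos, itself a gate, was 1.51-fold lower in SKG NKT2 cells (edgeR adjusted p = 0.00493), and fell short of the fold of 1.5 in 5 of 15 alternatives.

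Of the cytoplasmic partners, 1 of 18 was called in NKT1 and in NKT2, and 1 higher and 1 lower in NKT17, too few to be set apart from the shares over all genes, with medians of -0.03, 0.22 and -0.04. The gene called in all 3 subsets was Trat1, which encodes TRIM, an adaptor known to carry CTLA-4 to the cell surface. Trat1 was 2.00-fold higher in SKG NKT1, 6.24-fold higher in SKG NKT2 and 5.25-fold higher in SKG NKT17 cells (edgeR adjusted p = 0.0124, 7.64e-08 and 1.29e-06). The rise was 3.12-fold larger in NKT2 than in NKT1 and 2.63-fold larger in NKT17 than in NKT1 (edgeR adjusted p = 0.00356 and 0.0242). Ptpn6, which encodes the phosphatase SHP-1, was 1.56-fold lower in SKG NKT17 cells (edgeR adjusted p = 0.0175), and fell short of the fold of 1.5 without WT NKT17 replicate 2 or SKG NKT17 replicate 2. For Pik3r1 the SKG effect differed between NKT17 and NKT2 by -0.64 (edgeR adjusted p = 0.0472), a call lost in 5 of 21 alternatives (adjusted p up to 0.157).

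Of the transcription factors, 1 of 18 was called lower in NKT1, 4 lower and 1 higher in NKT2, and 3 lower and 1 higher in NKT17, with medians of -0.16, 0.17 and -0.22. Nfatc1, a calcium-driven activator known to act at Pdcd1, was 1.88-fold lower in SKG NKT2 and 1.54-fold lower in SKG NKT17 cells (edgeR adjusted p = 0.00017 and 0.00627), and in NKT17 it fell short of the fold of 1.5 without WT NKT17 replicate 1 or 3 or SKG NKT17 replicate 2. Tox, which sustains PD-1 in chronically stimulated T cells, was 1.88-fold and 1.99-fold lower (edgeR adjusted p = 0.00237 and 0.00142). Ikzf2 was 3.44-fold lower in SKG NKT1 and 4.47-fold lower in SKG NKT2 cells (edgeR adjusted p = 0.0197 and 0.0014). The NKT1 call was lost without SKG NKT1 replicate 1 or 3 (adjusted p = 0.111 and 0.108). The differences of its SKG effect between NKT17 and NKT1 and between NKT17 and NKT2 (edgeR adjusted p = 0.0898 and 0.0503) were lost in 14 and 8 of 21 alternatives (adjusted p up to 0.225 and 0.138), and no size is given. Prdm1, which encodes Blimp-1, was 3.46-fold higher in SKG NKT17 cells (edgeR adjusted p = 0.0362), a call lost without WT NKT17 replicate 1 or 3 or SKG NKT17 replicate 1 (adjusted p 0.115 to 0.145). For Nfatc1 the SKG effect differed between NKT2 and NKT1 by -0.75 (edgeR adjusted p = 0.0444), a call lost in 3 of 21 alternatives (adjusted p up to 0.128).

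Of the genes listed as other inhibitory receptors, 3 of 13 were called lower and 1 higher in NKT1, and 4 higher in NKT2. In NKT17 cells 3 were called lower and 2 higher. The medians in NKT1, NKT2 and NKT17 were -0.50, 0.06 and -0.01. Klrc1, which encodes NKG2A, was 3.69-fold lower in SKG NKT1 cells and Pecam1 1.83-fold lower (edgeR adjusted p = 0.000356 and 0.0177), whereas Lair1, a collagen receptor, was 4.12-fold higher (edgeR adjusted p = 0.0199). The Pecam1 call was lost when only the libraries compared were fitted (adjusted p = 0.271) and without WT NKT1 replicate 2 (adjusted p = 0.119). In SKG NKT2 cells Cd72 was 6.97-fold higher, Cd83 4.69-fold higher and 4632428N05Rik, the gene of VISTA, 1.60-fold higher (edgeR adjusted p = 2.07e-07, 0.0537 and 0.00209). The Cd83 call was lost without WT NKT2 replicate 1 or 2 or SKG NKT2 replicate 2 or 3 (adjusted p 0.13 to 0.168), and 4632428N05Rik fell short of the fold of 1.5 without WT NKT2 replicate 3. In SKG NKT17 cells Cd5, an inhibitor whose level follows TCR signal strength, was 2.67-fold lower, Cd6 1.65-fold lower and Adora2a 5.15-fold lower (edgeR adjusted p = 2.76e-05, 0.000781 and 0.00432). The SKG effect on Cd72 was more positive in NKT2 than in NKT1 by 3.10 and less positive in NKT17 than in NKT2, by -1.86 (edgeR adjusted p = 9.38e-05 and 0.0038), and for Cd101, an inhibitory receptor of activated T cells, it was more positive in NKT17 than in NKT1 by 1.83 (adjusted p = 0.0146). Other differences in SKG effect were called but lost in many alternatives. For Cd72 between NKT17 and NKT1 (edgeR adjusted p = 0.0947) the call was lost in 13 of 21, and for Cd5 it was lost in 7 of 21 between NKT17 and NKT1 and in 12 of 21 between NKT17 and NKT2 (edgeR adjusted p = 0.0618 and 0.0717). For Cd6 between NKT17 and NKT2 and for 4632428N05Rik between NKT2 and NKT1 (edgeR adjusted p = 0.0444 and 0.0391) it was lost in 4 of 21 each.

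**Figure D4:**
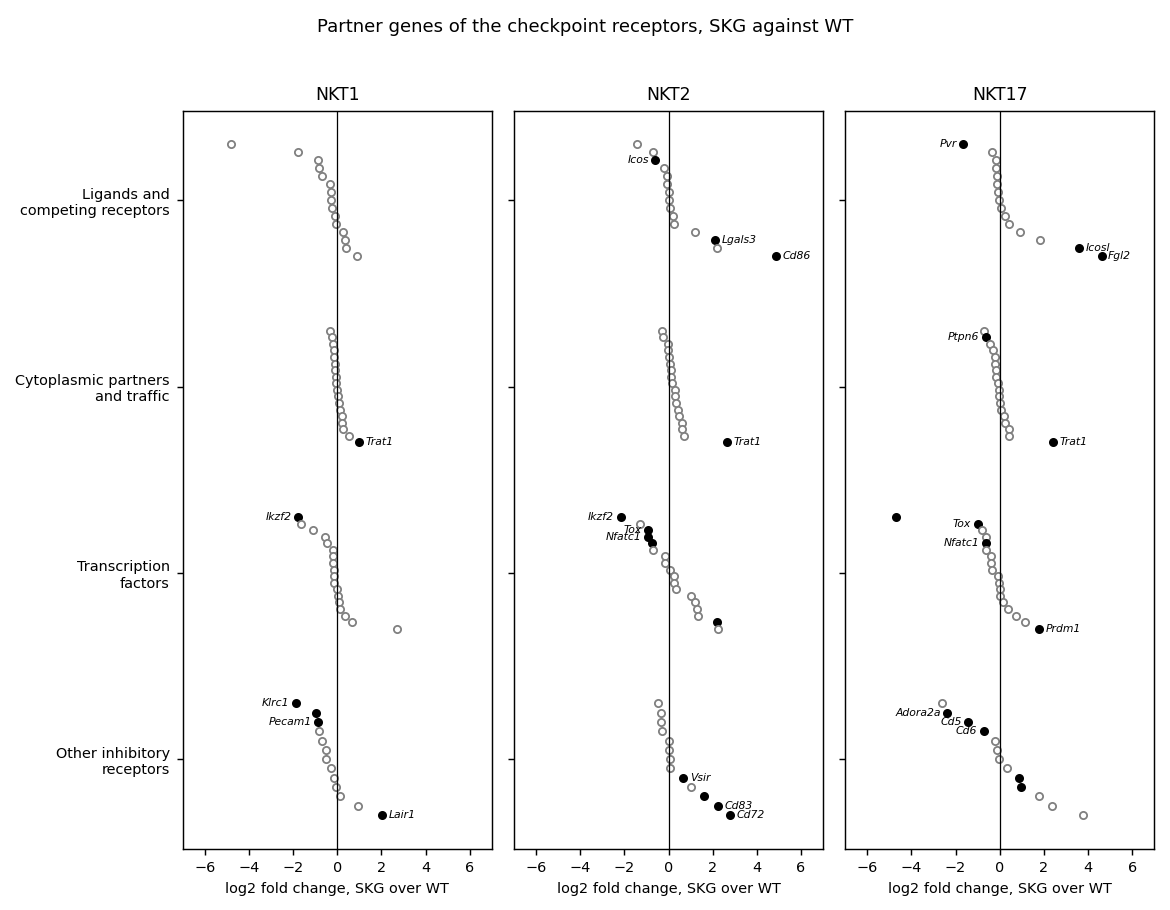
Log2 fold change of SKG over WT (horizontal axis) of the tested genes of 4 lists (rows) in each subset; each point is 1 gene, filled points were called, and the up to 3 called genes with the smallest adjusted p per list are named (Vsir is 4632428N05Rik). Trat1 is the gene furthest to the right of its list in all 3 panels, at 1.00, 2.64 and 2.39. Points far from 0 with few counts, such as Cd86 and Icosl, have sizes that depend on the prior count. The size for Fgl2 in NKT17 rests on SKG libraries that varied widely.

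Between subsets, more of the partner genes were called, as they were among all genes. Of the 15 ligands and competing receptors in WT, NKT1 exceeded NKT2 in 8 and fell below it in 2, exceeded NKT17 in 8 and fell below it in 4, and NKT17 exceeded NKT2 in 3 and fell below it in 6. The genes listed as other inhibitory receptors split 8 higher and 3 lower, 7 and 3, and 3 and 2 of 13 in the same order. Over all genes the shares were 13.7% and 13.7%, 11.2% and 13.5%, and 11.0% and 8.97%. Among them Klrc1 stood at 163 ± 24.1 CPM in WT NKT1 and at most 0.409 CPM in WT libraries of the other subsets, and Cd244 at 85.6 ± 38.6 CPM in WT NKT1 and 0 counts in WT NKT17 (SD, n = 3). Cd72 was highest in NKT17 cells, at 69.0 ± 11.4 CPM in WT and 133 ± 11.2 CPM in SKG (SD, n = 3), and Pecam1 was 4.79-fold lower in NKT1 than in NKT2 of WT mice (edgeR adjusted p = 3.02e-09). Tnfsf14, which encodes the HVEM ligand LIGHT, was 4.65-fold higher in NKT1 than in NKT2 of WT mice and 13.7-fold higher in NKT17 than in NKT2 (edgeR adjusted p = 2.11e-07 and 7.23e-11). Cd226, the activating partner of Tigit and Cd96, was 3.18-fold higher in NKT17 than in NKT2 of WT mice and 2.65-fold higher in SKG mice (edgeR adjusted p = 3.73e-10 and 7.72e-09). Cd28, the competitor of CTLA-4, was 3.49-fold and 3.83-fold lower in NKT17 than in NKT2 of WT and SKG mice (edgeR adjusted p = 3.10e-10 and 1.36e-10).

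The factors split with the subsets as well. Tbx21, the T-bet gene, stood at 548 ± 24.6 CPM in WT NKT1, 28.2 ± 14.3 in WT NKT2 and 0.825 ± 0.553 in WT NKT17 (SD, n = 3). Tox was 6.98-fold lower in NKT1 than in NKT2 of WT mice and 2.25-fold lower in NKT17 than in NKT2 (edgeR adjusted p = 4.38e-10 and 5.99e-05). Tcf7 was 5.52-fold lower in NKT1 than in NKT2 of WT mice, and Maf was 2.86-fold higher in NKT17 than in NKT2 (edgeR adjusted p = 6.64e-11 and 5.16e-06). Of the cytoplasmic partners, Ptpn6 was 1.73-fold and 1.98-fold higher in WT NKT1 than in WT NKT2 and NKT17 (edgeR adjusted p = 0.000898 and 0.000103), Trat1 was 2.76-fold and 7.49-fold higher (edgeR adjusted p = 3.35e-05 and 5.07e-09), and Inpp5d and Adam17 were 1.54-fold and 1.60-fold higher in WT NKT17 than in WT NKT2 (edgeR adjusted p = 0.000127 and 0.000194). Inpp5d fell short of the fold of 1.5 in 3 of 15 alternatives. Of the 18 factors in SKG mice, NKT1 exceeded NKT2 in 2 and fell below it in 5, exceeded NKT17 in 3 and fell below it in 5, and NKT17 exceeded NKT2 in 4 and fell below it in 6, beside 10.0% and 8.63%, 10.2% and 12.5%, and 10.5% and 8.27% of all genes.

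For each tested gene the 2 genes most like it in log2 CPM over the 18 libraries were found among the 8626 genes (8627 for Ctla4) whose counts averaged 50 or more. The libraries share groups and depth, so these correlations are descriptions. Pdcd1 and Lag3 were each other's nearest, with a Pearson r of 0.946, followed by Vdr for Pdcd1 (0.932) and Nipal1 for Lag3 (0.938). For Tigit they were Klrc2 (0.948) and Car2 (0.943), and for Cd160 Klra9 (0.951) and Smyd3 (0.948). For Cd96 they were Scg5 (0.966) and Cd44 (0.940), for Cd200 Chn1 (0.943) and Drosha (0.940), and for Btla Fyb (0.947) and Cdyl2 (0.923). Ctla4, at its low counts, had a highest r of 0.731, with Pan3, followed by 9030624J02Rik (0.674).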

How the data were processed

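RNA-seq libraries of sorted thymic iNKT subsets were made with a Smart-seq2 type protocol. The authors aligned reads with TopHat and counted them per gene with htseq-count, and the deposited table holds these raw counts. The submitters' processing notes name Bowtie 1.0.0, TopHat 1.4.1 and HTSeq 0.7.1 with builds mm10 and hg19, while the methods name mm9. The strand setting and annotation are not given in the sources used here. 2 columns that match no sample used here were left out.

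Of 15582 genes with a count, 11118 passed filterByExpr and were fitted over all 18 libraries with TMM scaling in edgeR 4.0.16 (R 4.3.3, quasi-likelihood test, 6 group means, 12 residual degrees of freedom). DESeq2 1.42.0, other scalings, filters, thresholds and samples, and a title-token block were alternatives. Calls needed an adjusted p under 0.1 and a fold of 1.5. All 9 checkpoint genes are named, and of each list up to 3 called genes per comparison with the smallest adjusted p. For each tested checkpoint gene the 2 most correlated genes are named. The genes and lists were chosen with earlier results of these data known. Values of some single marker genes are not reported here. The script was tested on simulated data. Libraries held 4391029 to 8895917 counts without molecular identifiers, so floors and intervals cover counting error only. Libraries with the same title token had deviations from their group means that correlated over 0.1 in 12 of 18 pairs within a genotype. Across genotypes this held in 0 of 18 pairs. All 3 pairs exceeded 0.1 for WT NKT2 with WT NKT17 alone. The main fit took the libraries as independent, so p-values between subsets and for differences in SKG effect ignore this likeness. The title-token block gave each token 1 effect shared by both genotypes. A block within each genotype was not fitted.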

Additional observations from a re-analysis of the deposited data

Results flagged for a closer look

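The following differences are given again because the SKG effect, the log2 difference of SKG from WT, differed between subsets by an interaction test in edgeR. For Cd96 it was larger in NKT2 than in NKT1 by 1.88 (SE 0.16, adjusted p = 1.21e-07), larger in NKT17 than in NKT1 by 0.73 (SE 0.15, adjusted p = 0.00944), and different in NKT17 from NKT2 by -1.16 (SE 0.15, adjusted p = 0.000179). Each of these Cd96 differences was called in all 21 alternatives. For Tigit it differed between NKT2 and NKT1 by 4.21 (SE 1.11, edgeR adjusted p = 0.0456) and between NKT17 and NKT1 by 6.95 (SE 1.68, adjusted p = 0.0293). For Lag3 it differed between NKT2 and NKT1 by 5.3 (SE 1.49, edgeR adjusted p = 0.0636). The size and SE for Tigit between NKT17 and NKT1 depend on the prior count, because WT NKT17 libraries had no Tigit count. Those for Lag3 do so because SKG NKT1 libraries had no Lag3 count. The size for Tigit between NKT2 and NKT1 rests on few counts, 4 over the WT and 15 over the SKG NKT2 libraries. Over the alternatives the adjusted p was 0.00307 to 0.249 for Tigit in NKT2, 0.000849 to 0.197 for Tigit in NKT17 and 0.0183 to 0.164 for Lag3.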

How the results depend on the processing

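Of 68 results for the checkpoint genes, 49 were called, 41 of them in every alternative, and none of the 49 reversed. Of the 12 counts of genes called, 7 stayed within 1.5 times in every alternative. For SKG against WT in NKT17 the count was 3 in place of 6 when only the libraries compared were fitted. For SKG NKT17 against NKT2 it was 2 in place of 4 at an adjusted p under 0.05 and 2 to 4 with a library left out, with 2 without SKG NKT2 replicate 1 or SKG NKT17 replicate 2. For the SKG effect of NKT2 minus NKT1 it was 1 to 3 in place of 3, with 1 without WT NKT2 replicate 3, SKG NKT2 replicate 1 or SKG NKT2 replicate 2. For NKT17 minus NKT1 it was 1 to 3 in place of 2, with 1 without SKG NKT17 replicate 1. For NKT17 minus NKT2 it was 2 in place of 1 when only the libraries compared were fitted. The causes were not tested. With a library left out, 3 results that were not called changed sign: Cd96 between NKT1 and NKT17 of WT ranged from -0.13 to 0.057, Cd160 between NKT17 and NKT2 of WT from -0.64 to 0.20, and the Pdcd1 SKG effect of NKT2 minus NKT1 from -0.11 to 0.61. The replicate block by title token ended the calls of Tigit for SKG against WT in NKT17 (edgeR adjusted p = 0.114) and of Cd160 for SKG NKT17 against NKT2 (adjusted p = 0.118) and changed no other call of these genes. Among the partner genes it ended that of Ikzf2 for NKT17 minus NKT1 (adjusted p = 0.109). Over all genes, edgeR called 364 for SKG against WT in NKT1 and 207 with only the libraries compared, 931 in NKT17 and 1398 with no fold minimum, 464 for NKT17 minus NKT1 and 278 at an adjusted p under 0.05 or 296 without SKG NKT17 replicate 3, and 244 for NKT17 minus NKT2 and 155 at an adjusted p under 0.05 or 157 without SKG NKT17 replicate 1. Of 113 results for partner genes, 91 were called in every alternative and none reversed. Depth limits Havcr2, Ctla4 and, outside NKT1 cells, Tigit, and 3 libraries a group limit all comparisons.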
